A study of Homo sapiens with 12 samples.

Results

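JADE2, TNFAIP8L1 and KAZN were the 3 genes with the steepest increase in signal between the early and the middle hours of a synchronized cell cycle, among 9130 genes with a measurable signal, each represented by its probe set with the highest mean. They were chosen by that increase: the mean over the DMSO arrays of 6, 7 and 8 h minus the mean over those of 0, 2 and 4 h, for probe sets annotated to 1 gene only. The 3 genes stand outside the lists of mitotic genes, and the question put to the data was whether they follow PLK1. The 3 genes have 8 probe sets on the array, of 41097 that carry a single gene symbol and 19775 genes so covered. A probe set was kept where its log2 signal reached 5 on at least 2 arrays, which left 15030 probe sets, 4 of them from the 3 genes. The increase itself is therefore a description and was not tested.

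The cells were HCT116, an established line from a human colorectal cancer. They were held at the S phase border by 2 successive incubations in thymidine and then released. After release they were cultured with nocodazole (0.1 mg/ml as the labels give it) and sampled hourly at 7 to 10 h, or with DMSO, the solvent control, and sampled at 0, 2 and 4 h and hourly at 6 to 10 h. Both groups share the same line and the same thymidine incubations. Each of these 12 conditions was hybridized to 1 Affymetrix human genome array, so there were 4 nocodazole arrays and 8 DMSO arrays. No condition has a replicate, and SDs below are over neighbouring hours. Nocodazole depolymerizes microtubules and holds cells in mitosis, while cells with DMSO can go on to divide. Thymidine in excess stops DNA replication, so release starts cells from the S phase border towards G2 and mitosis.

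Values are log2 signals. The genes that mark an epithelial line (EPCAM, CDH1, KRT8, KRT18 and KRT19) lay between 10.4 and 14.8 on every array, whereas CD3E, a T cell gene, did not pass 1.59 and PTPRC, found on all leukocytes, did not pass 4.27. Of 6 genes of other cell types only COL1A1 was kept, at 7.75 to 8.60. The arrays did not share 1 level: the median of the kept probe sets was 8.90, 8.99, 8.39 and 8.28 with nocodazole at 7, 8, 9 and 10 h, and 8.59 to 9.13 with DMSO. The 9 and 10 h nocodazole arrays thus lay lowest, and array level and drug cannot be told apart there. The array of DMSO at 4 h had a mean of 8.32 for its 3 control probe sets for 18S ribosomal RNA, against 3.55 to 4.05 on the other 11 arrays.

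The 3 genes encode proteins of different known roles. JADE2 is a PHD finger protein that serves as a scaffold of the HBO1 (KAT7) histone acetyltransferase complex and has been described as a ubiquitin ligase for the histone demethylase LSD1 (KDM1A). TNFAIP8L1, also called TIPE1, belongs to the TNFAIP8 family of small cytosolic proteins that bind phosphoinositides and bear on apoptosis and autophagy. KAZN encodes kazrin, which binds periplakin and is found at desmosomes and in the cornified envelope of keratinocytes. PLK1 is a kinase of mitotic entry, centrosome maturation and chromosome separation, and its transcript builds up in G2. Many genes of that kind carry in their promoters a cell cycle homology region (CHR, TTTGAA) and, upstream of it, CCAAT boxes, through which the DREAM and MuvB complexes and NF-Y act.

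PLK1, the gene the 3 were set against, shows both elements, and its promoter is printed as the pattern looked for. Sequences were taken from RefSeq on GRCh38.p14, 5′ to 3′, as the 250 bases before each annotated start, and both motifs (TTTGAA and CCAAT) were searched on both strands. PLK1 has 1 annotated start there, JADE2 6, KAZN 4 and TNFAIP8L1 1. The PLK1 window is chr16:23678639-23678888 on the plus strand, with the CCAAT box and the CHR in capitals. The CHR begins 29 bases before the start and the CCAAT box 73, without overlap.
PLK1: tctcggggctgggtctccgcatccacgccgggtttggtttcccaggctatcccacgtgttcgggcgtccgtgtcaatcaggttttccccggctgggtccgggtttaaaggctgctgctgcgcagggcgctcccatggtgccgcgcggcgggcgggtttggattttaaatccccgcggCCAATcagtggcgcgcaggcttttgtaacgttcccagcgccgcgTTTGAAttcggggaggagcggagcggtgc
Of the 6 JADE2 windows 1 held a CHR, read on the minus strand, hence TTCAAA as printed. It begins 28 bases before the start it belongs to, against 29 in PLK1, where the CHR is on the plus strand. How common such a distance is among all windows was not examined. The 30 bases around it are chr5:134524015-134524044 on the plus strand, with the CHR letters in capitals.
JADE2: cacccacgtgccTTCAAAgccaaaggtgag
No CCAAT was found in the 6 JADE2 windows. The single TNFAIP8L1 window, chr19:4639767-4640016 on the plus strand, held neither motif and is shown because this gene had the highest Pearson r with PLK1 of the members over all 12 arrays, though not over the DMSO arrays alone.
TNFAIP8L1: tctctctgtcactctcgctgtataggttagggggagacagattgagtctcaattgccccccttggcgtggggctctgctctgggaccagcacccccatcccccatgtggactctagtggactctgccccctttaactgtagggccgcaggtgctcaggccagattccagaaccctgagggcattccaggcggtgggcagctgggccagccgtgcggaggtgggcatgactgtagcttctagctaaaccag
None of the 4 KAZN windows held either motif. Over all 35116 windows of the same length, 13.3% held the CHR letters, 32.0% held CCAAT and 4.69% held both, and the 1 match in 6 JADE2 windows stands beside that share. A match is a description of letters and not a site, and a missing match says only that the letters are not in this window.

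JADE2 had low signals at the early hours and a plateau of high signals later. In a bulk culture, fewer cells in a phase and less RNA per cell cannot be told apart. Its probe set 212660_at read 4.59, 3.56 and 5.54 with DMSO at 0, 2 and 4 h, and 7.66, 8.59, 7.86, 7.85 and 7.67 hourly at 6 to 10 h. The signal was lowest at 2 h, highest at 7 h and then lay on a plateau, and the lowest value at 6 to 8 h (7.66) was above the highest at 0 to 4 h (5.54). The mean was 8.04 ± 0.49 at 6 to 8 h and 4.56 ± 0.99 at 0 to 4 h (SD, n = 3 hours each), a difference of 3.48 or 11.1-fold as deposited. At 0 and 2 h JADE2 lay under the level of 5 by which probe sets were kept, so the size of the difference depends on the floor set. With values under 4 set to 4 it was 3.33, and with values under 5 set to 5 it was 2.86 or 7.26-fold. The other JADE2 probe sets, 208202_s_at and 232279_at, stayed at 3.28 to 3.37 and at 2.22 to 2.53 on all 12 arrays. They were not kept and did not show the increase, so the JADE2 result rests on 1 probe set.

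TNFAIP8L1 was the earliest of the members to climb. Its only probe set, 227420_at, read 5.40, 5.93 and 8.18 with DMSO at 0, 2 and 4 h, and 9.47, 9.97, 9.02, 8.69 and 8.30 hourly at 6 to 10 h. The peak was again at 7 h, but here the signal was lower at each following hour. The mean was 9.49 ± 0.48 at 6 to 8 h and 6.50 ± 1.47 at 0 to 4 h (SD, n = 3 hours each), a difference of 2.98 or 7.91-fold, and the windows did not overlap (9.02 at the lowest, against 8.18 at the highest). Of the 3 early hours the one at 4 h was far above the other 2, and it is the array with the high 18S signal. Without it the difference was 3.82.

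By its brightest probe set KAZN climbed last and held its level. Probe set 213478_at read 6.32, 5.26 and 6.57 with DMSO at 0, 2 and 4 h, and 8.04, 9.59, 9.29, 9.11 and 9.55 hourly at 6 to 10 h. The 3 early hours were low, 6 h was intermediate, and the 4 later hours were high. The mean was 8.97 ± 0.82 at 6 to 8 h and 6.05 ± 0.70 at 0 to 4 h (SD, n = 3 hours each), a difference of 2.92 or 7.58-fold, with 8.04 as the lowest value of the later window, against 6.57 as the highest of the earlier. A different picture came from KAZN 229144_at, which read 6.34, 4.96 and 6.30 at 0, 2 and 4 h, and 6.32, 7.08, 6.97, 6.76 and 6.61 hourly at 6 to 10 h. Here the windows overlapped (6.32 at 6 h, against 6.34 at 0 h), and the difference was 0.93, or 0.47 without the low array of 2 h. The remaining KAZN probe sets, 213752_at and 215138_s_at, were not kept, with 2.60 to 4.12 and 2.31 to 2.89 over the 12 arrays. Which KAZN transcripts each probe set detects was not examined. In what follows KAZN stands for 213478_at, and 229144_at is called the dimmer KAZN probe set.

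**Figure D1:**
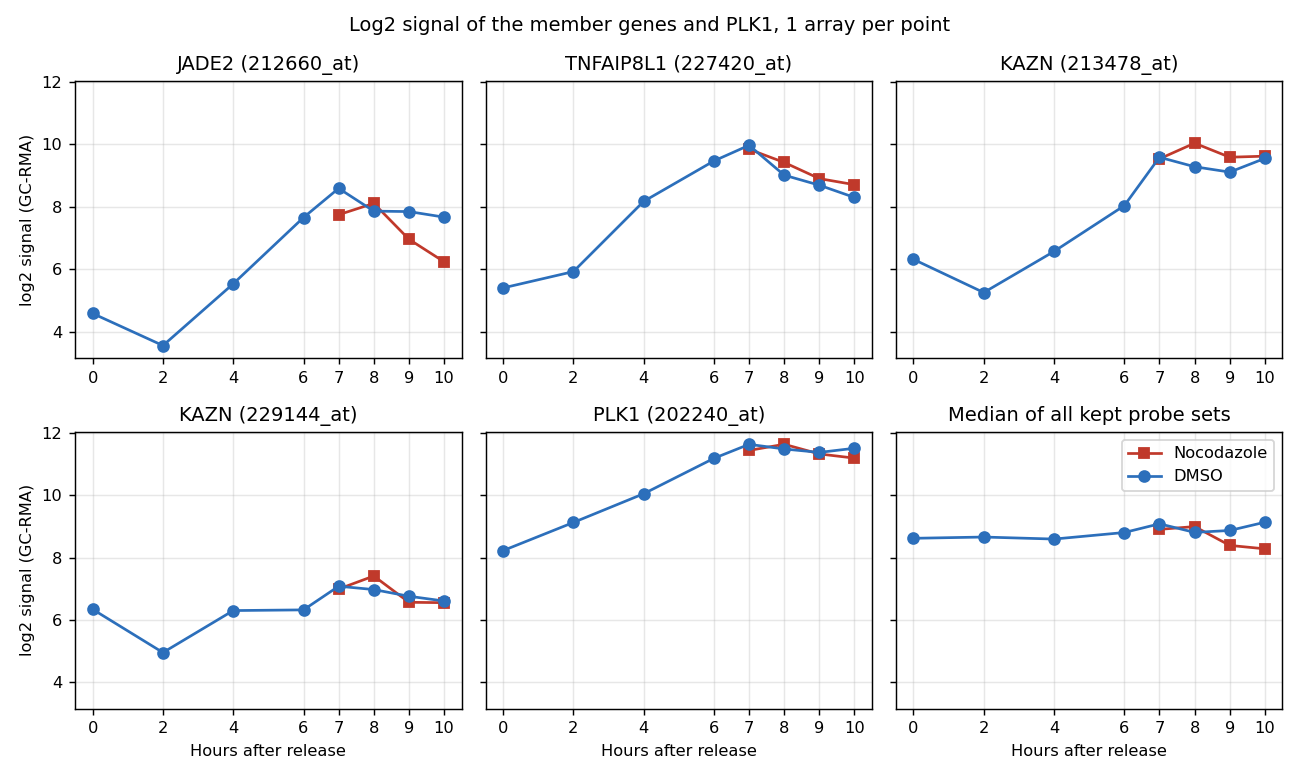
Log2 signal (y axis) against hours after release (x axis) for the 4 kept member probe sets, PLK1 and the median of all kept probe sets, with 1 array per point, nocodazole as squares and DMSO as circles. All 4 member probe sets and PLK1 are highest at 7 h among the DMSO arrays. The median of all kept probe sets is also higher there (9.08) than at 6 and 8 h (8.80 each). With nocodazole at 9 and 10 h JADE2 lies below DMSO (6.96 and 6.24, against 7.85 and 7.67), as does the median of all kept probe sets (8.39 and 8.28, against 8.87 and 9.13).

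**Figure D2:**
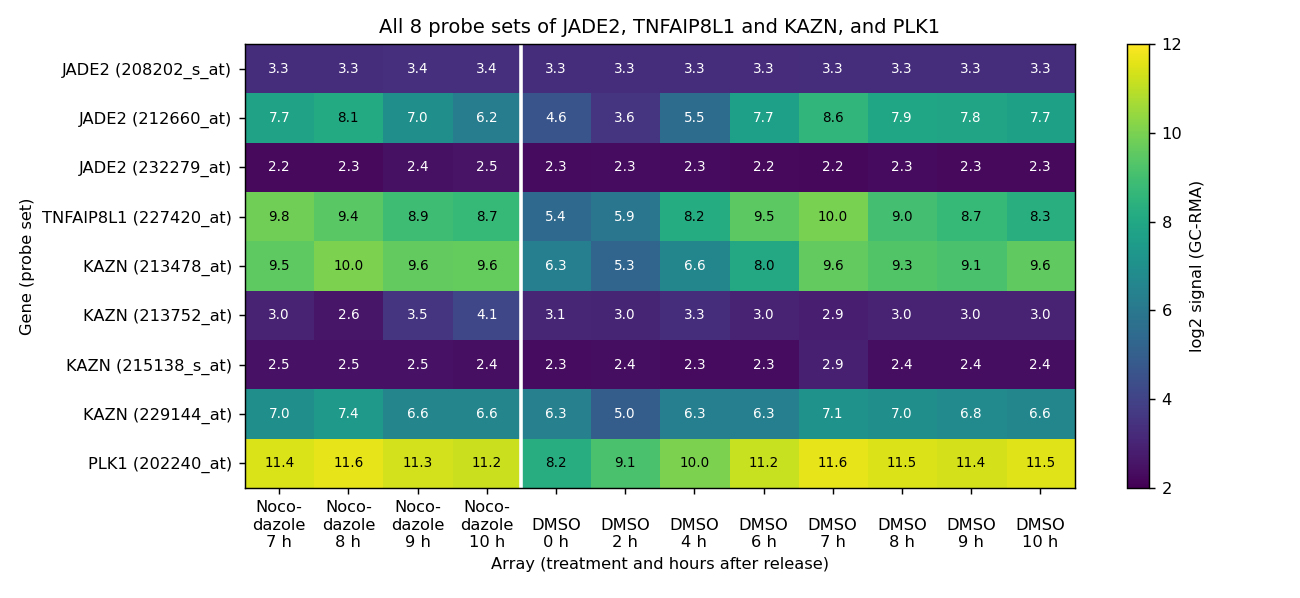
Log2 signal of all 8 probe sets of the 3 genes and of PLK1 (rows) on the 12 arrays (columns, nocodazole left of DMSO), with the value in each cell. JADE2 has 1 and KAZN 2 probe sets with signal, and the other 4 stay at or below 4.12.

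PLK1 (202240_at, its single probe set) read 8.22, 9.12 and 10.04 with DMSO at 0, 2 and 4 h, and 11.18, 11.62, 11.48, 11.37 and 11.50 hourly at 6 to 10 h. Its increase was steady and reached its highest DMSO value at 7 h, on an array that was itself brighter than those of 6 and 8 h. The mean was 11.43 ± 0.23 at 6 to 8 h and 9.13 ± 0.91 at 0 to 4 h (SD, n = 3 hours each), a difference of 2.30 or 4.91-fold. Ranked over genes, with the probe set of the highest mean for each, JADE2, TNFAIP8L1 and KAZN stood at 1, 2 and 3 and PLK1 at 15. With values under 5 set to 5 the 3 genes still held the top 3 places, but JADE2 stood at 3, behind TNFAIP8L1 and KAZN. The values just outside the choice were 2.91 for COL27A1, a collagen chain, and 2.67 for PRR5, a subunit of mTORC2, so KAZN and COL27A1 differed by far less than the spread between hours. Over all kept probe sets the median difference was 0.12, 1.10% reached 2 and the highest was 4.07. Ranked over probe sets the members stood lower, at 8 (JADE2), 24 (TNFAIP8L1), 29 (KAZN) and 1418 (the dimmer KAZN probe set). After quantile normalization the differences were 3.26, 2.72, 2.65 and 0.64 for these 4, and 2.12 for PLK1.

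The members differed from PLK1 and from each other in timing. Taking 0 h as 0% and the highest DMSO value as 100% on the log2 scale, PLK1 had covered 53.5% at 4 h and 86.8% at 6 h. TNFAIP8L1 was close to this with 60.7% and 89.0%, JADE2 was behind with 23.7% and 76.7%, and KAZN was furthest behind with 7.77% and 52.6%. At 2 h, where PLK1 was already above its 0 h value, JADE2 and both KAZN probe sets were below theirs. At 10 h PLK1 stood at 96.3% and KAZN at 98.9%, whereas JADE2 stood at 77.0% and TNFAIP8L1 at 63.4%. The dimmer KAZN probe set did not share this course: it stood at -5.32% at 4 h, -2.38% at 6 h and 36.0% at 10 h. Between 6 to 8 h and the 2 last hours, PLK1 differed by 0.01 (9 to 10 h minus 6 to 8 h), KAZN by 0.36, the dimmer KAZN probe set by -0.11, JADE2 by -0.28 and TNFAIP8L1 by -0.99, beside 0.07 for the median of all kept probe sets. With 1 array per hour these orders have no replicate check. The 100% point is DMSO at 7 h for every probe set here. On that array the median of all kept probe sets was 9.08, against 8.80 at 6 h and at 8 h. The part of this array level in the 7 h peak and in the percentages was not tested.

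The nocodazole arrays at 7 and 8 h, which took no part in the choice, showed the high state as well. JADE2 read 7.75 and 8.11 there, above all 3 early DMSO hours (at most 5.54). TNFAIP8L1 read 9.84 and 9.42 against at most 8.18, KAZN 9.54 and 10.04 against at most 6.57, and the dimmer KAZN probe set 6.99 and 7.41 against at most 6.34. Nocodazole at 7 to 8 h minus DMSO at 0 to 4 h came to 3.37, 3.13, 3.74 and 1.33 for these 4, and to 2.40 for PLK1. The early DMSO arrays also served the choice, so these differences are descriptions.

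In the order of all 12 arrays, the lowest 3 values of JADE2, of TNFAIP8L1 and of KAZN were those of DMSO at 0, 2 and 4 h. Above them JADE2 had nocodazole at 10 and 9 h (6.24 and 6.96), TNFAIP8L1 had DMSO at 10 and 9 h (8.30 and 8.69), and KAZN had DMSO at 6 h (8.04). The top was DMSO at 7 h for JADE2 (8.59) and TNFAIP8L1 (9.97) and nocodazole at 8 h for KAZN (10.04), the dimmer KAZN probe set (7.41) and PLK1 (11.63). Set against the spread between neighbouring hours within 5 windows of hours (an SD of 0.63 for JADE2, 0.84 for TNFAIP8L1 and 0.60 for KAZN), 5 of the 11 steps between neighbours in this order were larger for JADE2, 1 of 11 for TNFAIP8L1 and 3 of 11 for KAZN. For TNFAIP8L1 that step lay between DMSO at 2 h and at 4 h, and no step above it exceeded that SD. The SD of 0.84 includes the window of 0 to 4 h (SD 1.47), which holds this same step, so the lack of larger steps above it says little.

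Whether nocodazole moved the members was tested at 9 and 10 h on the 6 arrays that took no part in the choice (nocodazole at 7, 8, 9 and 10 h and DMSO at 9 and 10 h), with limma over all 15030 kept probe sets and Benjamini-Hochberg adjustment. JADE2 fell with nocodazole. It read 6.96 and 6.24 with nocodazole at 9 and 10 h, against 7.85 and 7.67 with DMSO, a difference of -1.16 (SE 0.27, adjusted p = 0.0167, n = 2 arrays each). The groups did not overlap and nocodazole was lower at both hours. TNFAIP8L1 read 8.91 and 8.71 with nocodazole, against 8.69 and 8.30 with DMSO, a difference of 0.31 (SE 0.21, adjusted p = 0.262 in limma). KAZN read 9.59 and 9.62 with nocodazole, against 9.11 and 9.55 with DMSO, a difference of 0.27 (SE 0.22, adjusted p = 0.338 in limma). The dimmer KAZN probe set, at 6.57 and 6.55 against 6.76 and 6.61, and PLK1, at 11.32 and 11.18 against 11.37 and 11.50, differed by -0.12 and -0.18 and did not pass either (limma, adjusted p = 0.614 and 0.273).

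These differences have to be read against the level of the arrays. In this comparison 4.29% of the kept probe sets were called higher with nocodazole and 44.9% lower, and the median of all was -0.48, so a lower call was common, and 1 of 4 member probe sets with one is below that share. Relative to this median JADE2 differed by -0.68, TNFAIP8L1 by 0.79, KAZN by 0.75, the dimmer KAZN probe set by 0.35 and PLK1 by 0.29. After quantile normalization, which sets all arrays to 1 distribution, 15.7% were called higher and 17.5% lower, and the members' calls changed. JADE2 then differed by -0.59 and no longer passed (limma, adjusted p = 0.134), while TNFAIP8L1 (0.93, adjusted p = 0.0281 in limma) and KAZN (0.86, adjusted p = 0.0121 in limma) were called higher with nocodazole. The dimmer KAZN probe set and PLK1 changed sign between the scales, to 0.41 and 0.20 (limma, adjusted p = 0.168 and 0.20). On both scales JADE2 was negative and TNFAIP8L1 and KAZN were positive, but without each array in turn the deposited-scale difference ran over 0.11 to 0.51 for TNFAIP8L1 and 0.05 to 0.49 for KAZN, and the mean of both KAZN probe sets gave 0.07.

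**Figure D3:**
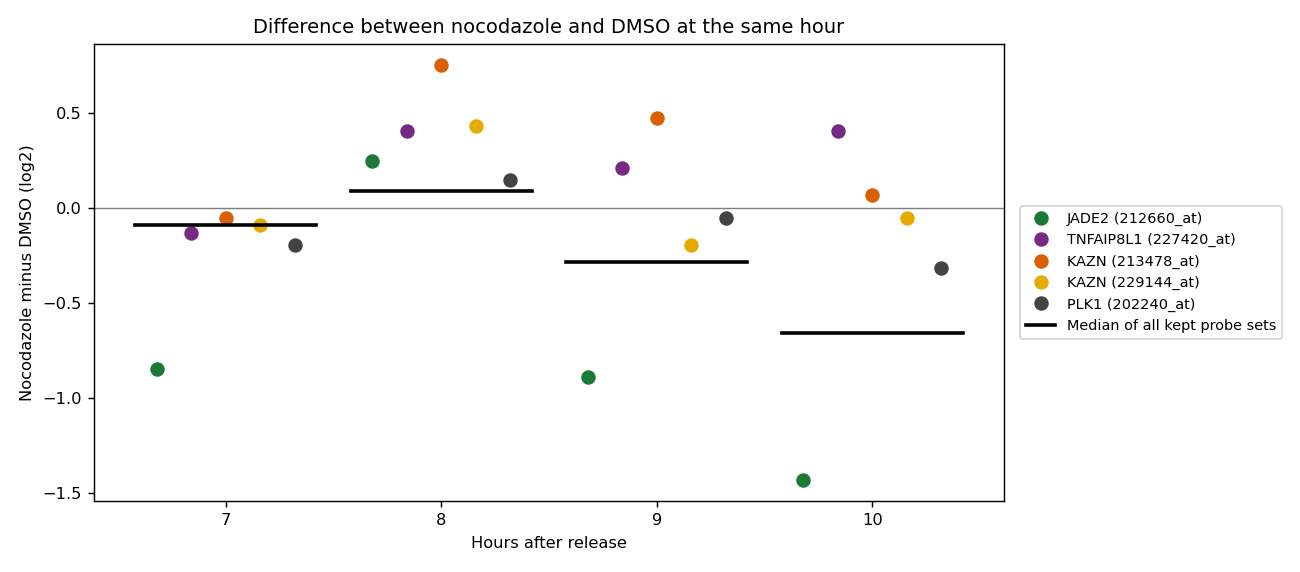
Nocodazole minus DMSO in log2 units (y axis) at the same hour after release (x axis), with 1 point per kept member probe set and for PLK1, each from 1 array per group, and the median of all kept probe sets as a bar. JADE2 is the lowest point at 7, 9 and 10 h (-0.84, -0.89 and -1.43), and TNFAIP8L1 and KAZN lie above the bar at 8, 9 and 10 h.

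Hour by hour, JADE2 differed by -0.84, 0.25, -0.89 and -1.43 (nocodazole minus DMSO at 7, 8, 9 and 10 h), so 8 h went against the other 3. TNFAIP8L1 differed by -0.13, 0.41, 0.21 and 0.41, and KAZN by -0.05, 0.76, 0.48 and 0.07. The medians of all kept probe sets at these hours were -0.09, 0.09, -0.28 and -0.65. TNFAIP8L1 and KAZN were thus close to the array median at 7 h and above it at the later 3 hours.

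Within the nocodazole arrays, the later and the earlier hours were compared in the same fit. JADE2 fell to a mean of 6.60 at 9 to 10 h, against 7.93 at 7 to 8 h, a difference of -1.33 (SE 0.27, adjusted p = 0.0144 in limma, n = 2 arrays each). TNFAIP8L1 fell to 8.81, against 9.63, a difference of -0.83 (SE 0.21, adjusted p = 0.0267 in limma), and the dimmer KAZN probe set fell to 6.56, against 7.20, a difference of -0.64 (SE 0.19, adjusted p = 0.0402 in limma). KAZN had a mean of 9.61 at 9 to 10 h and 9.79 at 7 to 8 h (-0.18, SE 0.22, adjusted p = 0.530 in limma), and PLK1 had 11.25 and 11.53 (-0.28, SE 0.13, adjusted p = 0.125 in limma). Here 3.45% of the kept probe sets were called higher at the later hours and 37.6% lower, with a median of -0.44. After quantile normalization 9.79% were called higher and 11.1% lower, and 0 of the 4 member probe sets passed (1 of 4, JADE2, at an unadjusted p under 0.05 in limma). JADE2 differed by -0.77 (limma, adjusted p = 0.0846), TNFAIP8L1 by -0.27 (0.463), the dimmer KAZN probe set by -0.10 (0.770) and KAZN, with the opposite sign, by 0.33 (0.211). Leaving out the nocodazole array of 10 h brought JADE2 to -0.97 in this comparison and to -0.80 against DMSO, with adjusted p = 0.0669 and 0.0783 in limma. The call of TNFAIP8L1 was lost without any 1 of the 4 nocodazole arrays, and that of the dimmer KAZN probe set without 5 of the 6 arrays in turn.

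A direct comparison with PLK1 used each value minus PLK1 on the same array. Only a shift that PLK1 shares is removed in this way. JADE2 fell relative to PLK1 with nocodazole, with a difference of -0.98 against DMSO at 9 to 10 h (SE 0.22, limma, adjusted p = 0.00897) and of -1.05 against nocodazole at 7 to 8 h (SE 0.22, limma, adjusted p = 0.0101). On this scale 31.9% and 18.6% of the kept probe sets were called lower in the 2 comparisons, and 875 and 819 of 15029 higher. The median of all was still -0.29 and -0.16, so a general shift towards lower values remained on this scale. TNFAIP8L1 differed from PLK1 by 0.49 and -0.55 (adjusted p = 0.143 and 0.137 in limma), KAZN by 0.46 and 0.10 (adjusted p = 0.0854 and 0.738) and the dimmer KAZN probe set by 0.06 and -0.36 (adjusted p = 0.814 and 0.170). For these 3 probe sets no departure from PLK1 was called. With SEs of 0.18 to 0.25, estimates as large as 0.49 and -0.55 went uncalled, so departures of at least that size are not excluded. In the DMSO increase, which chose them, JADE2 exceeded PLK1 by 1.18, TNFAIP8L1 by 0.69 and KAZN by 0.62, while the dimmer KAZN probe set fell short of it (-1.37).

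As a description of likeness over the 12 arrays, Pearson's r with PLK1 was 0.932 for TNFAIP8L1, 0.908 for JADE2, 0.904 for KAZN and 0.692 for the dimmer KAZN probe set. Spearman's rho was 0.657, 0.916, 0.734 and 0.909 in the same order, so TNFAIP8L1 had the highest r and the lowest rho. Of all kept probe sets 1.10%, 2.04%, 2.18% and 14.8% had an r at least as high, and the median r was 0.131. The points share the arrays, their levels and the common contrast of early against later hours, on which the 3 genes were chosen. Over the 8 DMSO arrays r was 0.931, 0.934, 0.902 and 0.660 in that order. Over the 6 arrays that took no part in the choice it was 0.311 for TNFAIP8L1, 0.882 for JADE2, 0.470 for KAZN and 0.775 for the dimmer KAZN probe set. There the median over kept probe sets was 0.688, and 77.9%, 7.97%, 71.5% and 31.8% had an r as high. Outside the early increase, then, TNFAIP8L1 and KAZN followed PLK1 less closely than most kept probe sets did, over a range of 11.18 to 11.63 in PLK1 and on arrays whose common level also differed. The 4 probe sets that were not kept had r of -0.10 to 0.41 over the 12 arrays.

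**Figure D4:**
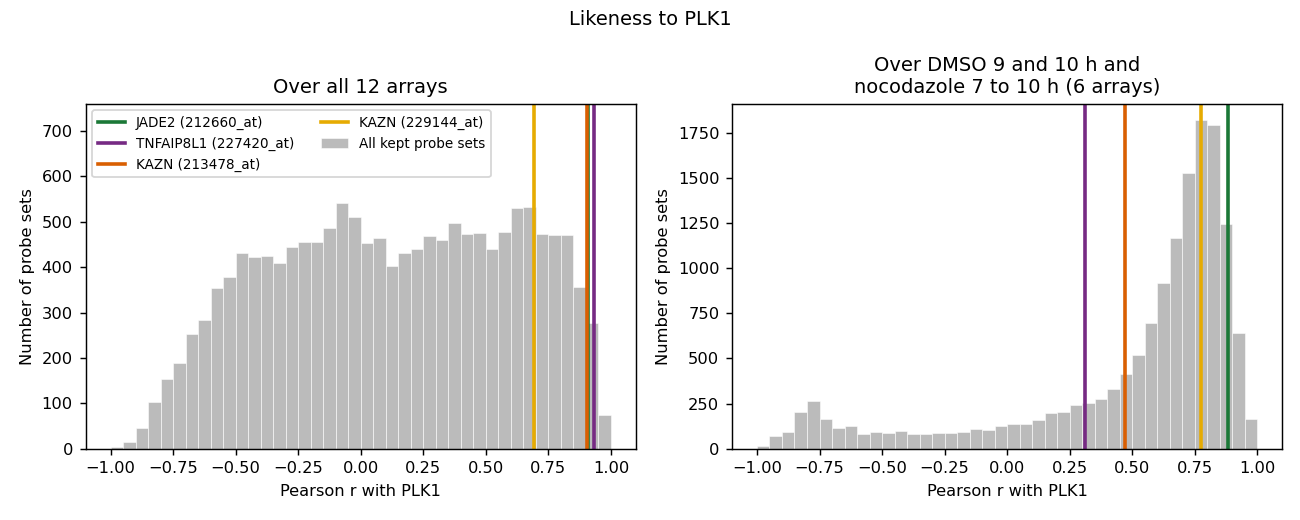
Number of kept probe sets (y axis) by their Pearson r with PLK1 (x axis), over all 12 arrays on the left and over the 6 arrays that took no part in the choice on the right, with lines at the 4 member probe sets. On the left JADE2 (0.908) lies under the line of KAZN (0.904), and on the right TNFAIP8L1 (0.311) and KAZN (0.470) are left of the main peak.

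Among themselves the members correlated at 0.897 (JADE2 and TNFAIP8L1), 0.879 (JADE2 and KAZN) and 0.817 (TNFAIP8L1 and KAZN) over the 12 arrays, and the 2 KAZN probe sets at 0.841. Over the DMSO arrays alone JADE2 was nearest to KAZN (0.964). The genes most like each member were then listed, by r over the 12 arrays and 1 probe set per gene. For TNFAIP8L1 these were AURKA, a kinase of spindle assembly (0.984), GTSE1, a microtubule-bound protein of G2 and S phase (0.980), KNSTRN, a kinetochore protein (0.977), ASPM, a spindle pole protein (0.972), and KIF20A, a kinesin of cytokinesis (0.969), with PLK1 at place 37 of 9129. For JADE2 they were PIMREG, a mitotic regulator (0.970), KIAA1671 (0.968), LRIF1, a chromatin protein (0.967), RAB29, a small GTPase (0.964), and DDHD1, a phospholipase (0.961), with PLK1 at place 98. For KAZN they were UBE2S, the ubiquitin-conjugating enzyme of the anaphase-promoting complex (0.973), COA7, an assembly factor of cytochrome c oxidase (0.972), USP36, a nucleolar deubiquitinase (0.972), FAM171A1 (0.971) and ANKS1A, an adaptor protein (0.967), with PLK1 at place 156. The differences between 6 to 8 h and 0 to 4 h were 0.57 to 2.10 for these 15 genes. All 5 neighbours of TNFAIP8L1 are known for mitosis, against 1 each for JADE2 and KAZN, which was seen after the fact and was not tested.

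Genes listed beside the members by complex, family or structure did not share the members' increase as a group. Of 10 genes around JADE2 (JADE1, JADE3, KAT7, ING4, ING5, MEAF6, BRPF1, BRPF3, BRD1 and KDM1A), 8 were kept, with a median difference between 6 to 8 h and 0 to 4 h of 0.26 beside 0.12 for all kept probe sets. ING5, a PHD finger subunit of the complex, showed 1.86 (8.29 against 6.44), BRD1 0.83 and BRPF1 0.54, both scaffolds, while JADE1, a paralog of JADE2, showed -0.39. With nocodazole at 9 to 10 h, 3 of the 8 were called lower than with DMSO, a share below the 44.9% of all kept probe sets: KAT7, the acetyltransferase itself (-1.61, limma, adjusted p = 0.00275), KDM1A (-0.68, adjusted p = 0.0156) and JADE1 (-0.84, adjusted p = 0.0163). Within nocodazole 6 of the 8 fell at 9 to 10 h, beside 37.6% of all kept probe sets, KAT7 again furthest (-1.57, limma, adjusted p = 0.00371), but after quantile normalization 1 of the 8 did. KAT7 was that one and kept its call in both comparisons (-1.0 and -0.98 after quantile normalization), KDM1A in the one against DMSO (-0.27), JADE1 in neither, and JADE3 was called higher in both (0.51 and 0.55).

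In the TNFAIP8 family only TNFAIP8, an inhibitor of apoptosis, was kept besides TNFAIP8L1, and it ran the other way. It averaged 6.59 with DMSO at 6 to 8 h and 7.90 at 0 to 4 h, a difference of -1.31, with r of -0.713 to PLK1 over the 12 arrays. With nocodazole at 9 to 10 h TNFAIP8 fell to 4.39, a level under 5, against 6.29 with DMSO (-1.91, limma, adjusted p = 0.00384) and 5.98 with nocodazole at 7 to 8 h (-1.60, adjusted p = 0.00761). Both calls held after quantile normalization (-1.94 and -1.64). TNFAIP8L2 and TNFAIP8L3 did not pass 2.83 and 2.28 on any array.

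Of 9 genes of desmosomes and the cornified envelope, set beside KAZN, all were kept and the median difference was -0.01. PKP3, a plakophilin, had the largest (0.53), followed by DSP, desmoplakin (0.36), and PPL, periplakin, the binding partner of kazrin, had -0.01 (9.45 against 9.46). With nocodazole 2 of the 9 fell in each comparison, fewer than the 44.9% and 37.6% of all kept probe sets: PPL, with -0.98 against DMSO at 9 to 10 h and -1.29 against nocodazole at 7 to 8 h, and PKP2, another plakophilin, with -0.90 and -1.46 (limma, adjusted p = 0.00858, 0.00591, 0.00616 and 0.00298). After quantile normalization both genes kept the call within nocodazole (-0.71 and -0.87) and lost it against DMSO (-0.33 and -0.27), where DSP was called higher (0.29).

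Beside PLK1, 12 further genes of G2 and mitosis had differences between 6 to 8 h and 0 to 4 h of 0.58 to 2.59, with a median of 1.27. At 9 to 10 h, 3 of the 12 were called higher with nocodazole than with DMSO. They were TTK, a kinase of the spindle checkpoint (0.53), NEK2, a centrosomal kinase (0.49), and AURKA (0.48). Their adjusted p in limma was 0.0255, 0.0301 and 0.0191, beside 4.29% of all kept probe sets called higher and 44.9% lower. These 3 genes were not called higher within nocodazole, where 9 to 10 h minus 7 to 8 h gave -0.35, 0.004 and -0.24. Their DMSO means were lower at 9 to 10 h than at 6 to 8 h, such as 11.87 against 12.59 for AURKA. After quantile normalization, where 15.7% of all were called higher against DMSO, TTK, NEK2 and AURKA were called again and ASPM was added. Within nocodazole CENPE (-1.50) and CENPF (-0.54), both kinetochore proteins, fell, and only CENPE was called after quantile normalization (-0.92). Against DMSO, where JADE2 was called lower, 0 of the 12 were, and 1, CENPE, was lower at an unadjusted p under 0.05 (-0.58, limma, adjusted p = 0.0632). The difference between JADE2 and these genes was not tested. Of 8 genes of G1 and S phase 6 were called lower with nocodazole than with DMSO on both scales, beside 44.9% of all kept probe sets called lower, or 17.5% after quantile normalization. Among them was CCNE2, cyclin E2, with a mean of 3.55 with nocodazole, under the level of 5, and 10.6 with DMSO (limma, adjusted p = 0.00130). Their DMSO means were higher at 9 to 10 h than at 6 to 8 h, such as 10.87 against 10.00 for CCNE1 and 11.86 against 11.30 for MCM6. Within nocodazole 2 of the 8 were called lower at the later hours, beside 37.6% of all kept probe sets, and 1 after quantile normalization, beside 11.1%. The part of cell cycle position in the JADE2 difference was not tested.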

How the data were processed

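Gene expression was profiled on 12 arrays of HCT116 cells, 1 for each treatment and hour. Each deposited value is the log2 signal of 1 probe set. The authors obtained it with GC-RMA, as stated in their methods and the submitters' processing notes, where no version is given. All 12 value columns were used and 0 belonged to other samples. Precision is limited by the small number of arrays. DNA flow cytometry was not analysed here.

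Gene symbols came from the platform annotation. Among the 54675 probe sets, a single symbol was given for 41097, more than 1 for 1801 and no symbol for 11777. Those with a single symbol were kept where 2 or more arrays reached log2 5 (15030, of 9130 genes), and ranks over genes used the probe set with the highest mean. Differences were computed on the log2 scale as deposited, with no normalization added in the main results. Tests were made with limma 3.58.1 in R 4.3.3 (lmFit, contrasts of group means, eBayes with intensity trend) on the 6 arrays outside the choice of members, in the groups nocodazole 9 and 10 h, nocodazole 7 and 8 h and DMSO 9 and 10 h, with p-values adjusted by Benjamini-Hochberg over all kept probe sets and a threshold of 0.05. Neighbouring hours stood in for replicates, so p-values measure the spread between these hours. The fit was also run on simulated arrays with independent noise, no shift of whole arrays and no course over hours. That run checks the code and cannot show how the p-values behave under such shifts. Other steps used Python 3.11.15 with pandas 2.3.3 and numpy 2.4.6.

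The members, the gene lists and the tests were chosen with earlier results of these data known. Named were all probe sets of the 3 genes and PLK1, the 5 genes with the highest r to each member, members of each list that passed (at most 4, by p) and up to 3 per list by the size of the difference between 6 to 8 h and 0 to 4 h. Alternatives were no level filter or a level of 7, quantile normalization, 1 probe set or the mean per gene, no intensity trend, all 12 arrays in 1 fit, the hour as a block, a floor at 4, and leaving out each array. Values minus PLK1, values minus the array's median and a floor at 5 were added after seeing the data. The limma fit of values minus PLK1 used no intensity trend.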

Additional observations from a re-analysis of the deposited data

Results flagged for a closer look

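The 18S ribosomal RNA control probe sets, which no comparison used, had a mean log2 signal of 8.32 with DMSO at 4 h, against 3.55 to 4.05 on the other 11 arrays. That array is 1 of the 3 early hours of the difference that chose the members, which without it was 3.97 for JADE2, 3.82 for TNFAIP8L1, 3.18 for KAZN and 2.75 for PLK1.

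Among the member probe sets that were not kept, 3 had signals on the nocodazole arrays of 9 and 10 h above all other arrays. JADE2 208202_s_at had a mean of 3.36 there, against 3.28 to 3.33 on the other 10 arrays. JADE2 232279_at had a mean of 2.48, against 2.22 to 2.34. KAZN 213752_at had a mean of 3.82 (3.52 and 4.12), against 2.60 to 3.29. On the same 2 arrays the 25th percentile of all probe sets was 2.43 and 2.42, against 2.27 to 2.36 on the other 10, while the median of the kept probe sets was the lowest of all. The part of the array level in these 3 signals was not tested.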

How the results depend on the processing

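The increase with DMSO stayed between 2.44 and 3.97 for JADE2, TNFAIP8L1 and KAZN without each array in turn, and r with PLK1 over 11 arrays between 0.871 and 0.962 for these and 0.591 to 0.907 for the dimmer KAZN probe set. Over the 6 arrays outside the choice r moved to 0.311 for TNFAIP8L1 and 0.470 for KAZN. The calls with nocodazole were less stable. Quantile normalization brought JADE2 to -0.59 and -0.77 (against DMSO and within nocodazole) and TNFAIP8L1 and the dimmer KAZN probe set within nocodazole to -0.27 and -0.10, all no longer called, and TNFAIP8L1 and KAZN against DMSO to 0.93 and 0.86, both called. With all 12 arrays in 1 fit, whose spread includes the early hours, JADE2 (-1.16 and -1.33, adjusted p = 0.102 and 0.0781 in limma), TNFAIP8L1 (-0.83, 0.365) and the dimmer KAZN probe set (-0.64, 0.251) were not called. Relative to PLK1, TNFAIP8L1 (-0.55) and the dimmer KAZN probe set (-0.36) were not called within nocodazole, nor was the dimmer KAZN probe set with a level of 7 (-0.64, limma, adjusted p = 0.0522).

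Without each of the 6 arrays JADE2 ranged over -1.52 to -0.80 against DMSO, losing the call 3 times (without DMSO 9 h, DMSO 10 h or nocodazole 10 h), and over -1.69 to -0.97 within nocodazole, losing it without nocodazole 8 h or 10 h. TNFAIP8L1 within nocodazole ranged over -1.04 to -0.61 and lost the call without any of the 4 nocodazole arrays. The dimmer KAZN probe set ranged over -0.85 to -0.43 and kept the call only without nocodazole 7 h. KAZN within nocodazole ranged over -0.43 to 0.07 and was never called. Where 1 array was left in a group, it was taken to vary like the others. The hour as a block, no intensity trend and values relative to PLK1 kept the JADE2 call against DMSO.

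The count of called probe sets was 7392 against DMSO, 30103 of 41097 with no level filter (22563 of them higher), 4519 of 9130 with 1 probe set per gene, and 2549 to 8756 without each array, fewest without nocodazole 10 h and 3710 without DMSO 10 h and 4582 without nocodazole 9 h. Within nocodazole it was 6174, then 29269 with no filter, 3657 with 1 probe set per gene, 3136 after quantile normalization, 3613 relative to PLK1, and 1285 to 7369 without each array (1285, 1463, 2588 and 3561 without nocodazole 8, 10, 7 and 9 h). A mean over PLK1 probe sets could not differ, since PLK1 has 1, and the dimmer KAZN probe set has no value where a gene is represented by 1 probe set or its mean. The labels number no replicates, and the hour that nocodazole and DMSO shared served as the block (6080 called against DMSO, JADE2 -1.16, limma, adjusted p = 5.74e-05). The SE of JADE2 was 0.26 in this fit and 0.27 in the main fit. With so few arrays the block fit took its spread from other probe sets. Its smaller p-value is therefore not stronger evidence for JADE2.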
